A study of Homo sapiens with 12 samples.

Results

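The vesicle coats and cargo receptors that carry proteins between the endoplasmic reticulum (ER) and the Golgi were described in HK-2 cells exposed to CsA (cyclosporine A) or to control vehicle. The list held 43 genes, taken by name, of 19775 genes named on the array. Where a gene had several probe sets, the one brightest on average across all 12 arrays stood for it. A probe set with a single gene symbol was present for 41 of the 43, and all 41 passed the filter on low values, which left 10508 genes in all. KDELR2 and USO1 were not analysed here. The 41 genes comprised 11 of the COPII coat and its exit sites, 11 of the COPI coat and its ARF GTPases, 14 cargo receptors and 5 tethers and SNAREs (membrane fusion proteins).

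HK-2 is an immortalised line of human renal proximal tubular epithelial cells, grown in a defined medium with EGF, insulin and hydrocortisone and treated on plates near confluence. There were 4 groups of 3 biological replicates, numbered 1 to 3: CsA for 12 h, vehicle control for 12 h, CsA for 48 h and vehicle control for 48 h. The labels give no dose of CsA and do not say what a shared replicate number stands for. The study asked which expression signatures mark compounds toxic to kidney cells. Values are log2 intensities on Affymetrix arrays, so a difference of 1 is a doubling, and the number of arrays, not a read depth, limits their precision. Each RNA came from a whole culture, so less RNA per cell and fewer cells expressing a gene cannot be told apart.

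Of 10 epithelial and renal lineage markers, 9 passed the filter: KRT8, KRT18, KRT19, CDH1, CDH2, EPCAM, PAX8, CDH6 and VIM. PAX2 did not (mean 2.62). VIM was the brightest of the 10 (mean 14.2), and CDH2 (9.31) stood above CDH1 (6.98). None of 10 genes of differentiated proximal tubule function passed it, and none of the 3 leukocyte markers measured. Of 4 endothelial markers PECAM1 alone passed. Keratins, CDH1, EPCAM and PAX8 were thus present, together with VIM and CDH2, without the genes of differentiated tubule transport.

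COPII is the coat that buds vesicles from the ER. The GTPase SAR1 recruits an inner layer of SEC23 and SEC24, which binds cargo, and an outer cage of SEC13 and SEC31A, at exit sites organised by SEC16A. COPI, a ring of coatomer subunits recruited by ARF GTPases, carries escaped ER proteins back and moves material within the Golgi. Cargo receptors load the vesicles: LMAN1 carries glycoproteins such as coagulation factors, SURF4 secreted proteins, MIA3 (TANGO1) bulky procollagens, and the KDEL receptors return ER chaperones. Many of these genes are known targets of the unfolded protein response, through XBP1 and ATF6, when the ER is loaded with unfolded protein. CsA binds cyclophilins, one of which resides in the ER, and the cyclosporine-cyclophilin complex inhibits calcineurin. The drug is used against transplant rejection and is known for its toxicity to the kidney tubule.

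The promoters are shown first because XBP1 and ATF6 bind a short core sequence, TGACGTG, found in the unfolded protein response element. RefSeq promoter windows (GRCh38.p14, 250 bases before to 50 bases after each annotated start) were found for 37 of the 41 genes. No window was available for SEC24D, ARF4, ERGIC1 or TMED9. TGACGTG, on either strand, lay in the window of 12 of the 37 genes, or 32.4%. The share was 3.38% of the 8696 tested genes with a window, 2.40% of all 27305 genes in the table and 1.97% of all 35116 windows. By class it lay in 5 of 10 COPI coat genes, 4 of 10 COPII coat genes, 2 of 12 cargo receptors and 1 of 5 tethers and SNAREs. The 13 matches are printed below as 41 bases each, read along the strand on which TGACGTG (in capitals) is found.
ARF1, chr1:228082675-228082715, plus strand: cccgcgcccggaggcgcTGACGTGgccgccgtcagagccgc
COPA, chr1:160343222-160343262, minus strand: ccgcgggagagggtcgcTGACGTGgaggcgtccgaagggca
COPB1, chr11:14499835-14499875, plus strand: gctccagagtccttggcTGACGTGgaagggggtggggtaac
COPB2, chr3:139389626-139389666, plus strand: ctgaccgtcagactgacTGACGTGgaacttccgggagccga
COPB2, chr3:139389819-139389859, plus strand: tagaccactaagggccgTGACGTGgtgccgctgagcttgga
COPE, chr19:18919368-18919408, minus strand: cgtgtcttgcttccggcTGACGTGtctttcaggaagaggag
KDELR3, chr22:38468034-38468074, minus strand: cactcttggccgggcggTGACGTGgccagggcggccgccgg
MIA3, chr1:222644285-222644325, plus strand: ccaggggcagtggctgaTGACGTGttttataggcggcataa
SEC13, chr3:10321232-10321272, plus strand: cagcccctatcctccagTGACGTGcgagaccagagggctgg
SEC16A, chr9:136484701-136484741, plus strand: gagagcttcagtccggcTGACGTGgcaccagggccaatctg
SEC23A, chr14:39103216-39103256, minus strand: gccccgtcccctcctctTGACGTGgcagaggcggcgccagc
SEC24A, chr5:134648589-134648629, plus strand: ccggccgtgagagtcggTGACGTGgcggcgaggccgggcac
STX5, chr11:62832044-62832084, minus strand: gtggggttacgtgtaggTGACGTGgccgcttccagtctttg

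The base after the core was G in 10 of the 13 matches. The centres of the matches lay between 176 bases before and 19 bases after the start, with a median of 13 bases before it. COPB2, which encodes the beta-prime subunit of coatomer, held 2 matches, so its window is given whole. It is printed along the gene's own strand, where the core reads CACGTCA (in capitals).
COPB2, chr3:139389631-139389930, minus strand: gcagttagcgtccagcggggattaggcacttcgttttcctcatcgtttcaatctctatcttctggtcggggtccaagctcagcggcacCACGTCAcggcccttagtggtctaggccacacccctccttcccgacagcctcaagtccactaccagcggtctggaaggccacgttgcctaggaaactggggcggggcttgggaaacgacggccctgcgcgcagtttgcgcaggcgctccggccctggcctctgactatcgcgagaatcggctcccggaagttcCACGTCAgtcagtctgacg

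**Figure D1:**
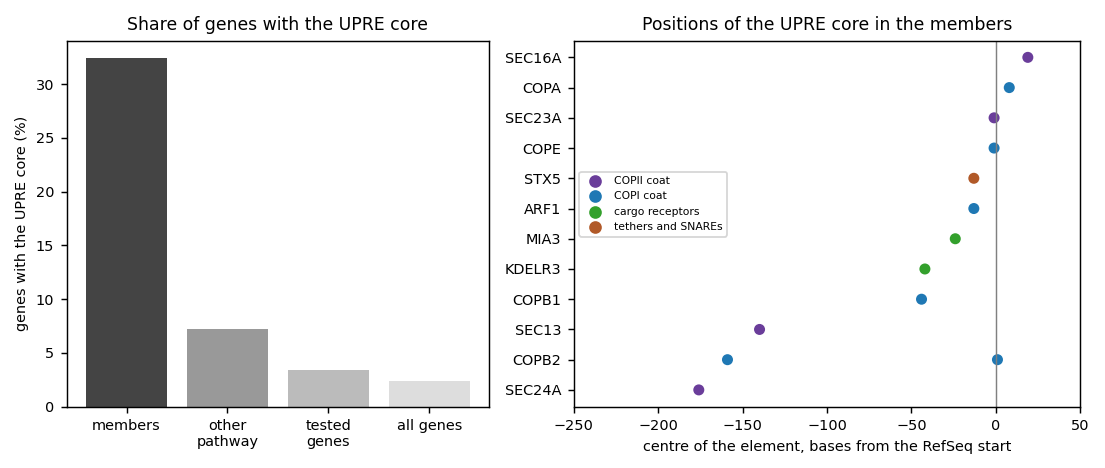
Share of genes, in percent, whose promoter window holds TGACGTG on either strand, for the 37 together and for the wider sets, and positions of the matches. The 37 genes stood at 32.4%, against 7.25% of the 69 other secretory pathway genes and 3.38% of the tested genes.

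Other motifs were searched in the same windows, on both strands. CCACG, one arm of the ER stress element, lay in 33 of 37 genes (89.2%), against 57.9% of tested genes. Read on the other strand it is CGTGG, which overlaps TGACGTG wherever a G follows. CCAAT, the other arm, lay in 40.5% of the genes, against 43.9% of tested genes. The full ER stress element (CCAAT, 9 bases of any kind, CCACG) lay in none of the 37, and in 0.172% of tested genes. The ATF4 element TGATGNAA also lay in none, against 2.69% of tested genes. A match describes the letters in the window and does not show that a factor binds there.

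The promoters of SEC23B and TMED10 are also given, since both genes rose at 12 h in one of the fits and no window of either holds TGACGTG. Capitals mark CCACG and CCAAT on either strand (CGTGG and ATTGG on the other). SEC23B had 2 windows, of which 1 is printed. The other, chr20:18507298-18507597, holds neither CCACG nor CCAAT on either strand.
SEC23B, chr20:18507690-18507989, plus strand: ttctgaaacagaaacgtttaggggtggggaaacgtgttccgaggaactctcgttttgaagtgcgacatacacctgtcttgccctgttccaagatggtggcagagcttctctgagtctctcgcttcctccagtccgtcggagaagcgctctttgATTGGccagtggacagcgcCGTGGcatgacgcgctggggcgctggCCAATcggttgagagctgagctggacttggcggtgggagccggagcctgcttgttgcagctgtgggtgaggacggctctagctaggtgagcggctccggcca
TMED10, chr14:75176563-75176862, minus strand: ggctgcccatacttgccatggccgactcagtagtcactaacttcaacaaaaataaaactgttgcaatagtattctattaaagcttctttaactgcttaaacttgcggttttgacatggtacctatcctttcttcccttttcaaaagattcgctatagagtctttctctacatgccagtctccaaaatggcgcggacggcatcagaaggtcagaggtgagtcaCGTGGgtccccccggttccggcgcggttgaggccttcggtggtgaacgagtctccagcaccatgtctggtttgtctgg

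The first comparison asked how CsA for 12 h differed from vehicle for 12 h. SEC24D, SEC23B and TMED10 rose with CsA in a fit of the 12 h arrays alone that compared samples of the same number. They are an inner COPII coat subunit, its partner and a cargo receptor of the p24 family. No gene passed in the fit of all 12 arrays without pairing, where 0% of the 10508 genes were called. Counting these 3, 35 of the 41 members had a change above 0, against 45.2% of all tested genes, with a median of 0.10 against -0.01.

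SEC24D, which selects cargo for COPII vesicles, stood at 9.59, 9.36 and 9.13 on the CsA 12 h arrays (replicates 1 to 3). On the control 12 h arrays it stood at 8.70, 8.62 and 8.61. All 3 CsA arrays lay above all 3 control arrays, and the control arrays lay close together. The difference was 0.72 on the log2 scale, or 1.64-fold, and was 0.89, 0.74 and 0.52 in pairs 1, 2 and 3. SEC24D had 2 further probe sets, both too dim to pass the filter, with differences of 0.35 and 0.03. With the mean of all 3 the difference was 0.37 (limma adjusted p 1.00 without pairing).

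SEC23B, which stimulates GTP hydrolysis by SAR1 and binds SEC24, stood at 11.18, 11.18 and 10.98 on the CsA 12 h arrays and at 10.78, 10.76 and 10.68 on the control 12 h arrays. These groups did not overlap either, and the lowest CsA array was replicate 3. The difference was 0.37, or 1.30-fold, with pair values of 0.40, 0.42 and 0.30. The other probe sets of SEC23B, which carry no independent RNA, gave 0.36 and 0.35.

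TMED10, a p24 protein found in vesicles of both coats, stood at 12.26, 12.20 and 12.17 on the CsA 12 h arrays and at 11.89, 11.81 and 11.86 on the control 12 h arrays. It had the tightest groups of these 3 genes, again without overlap. The difference was 0.36, or 1.29-fold, with pair values of 0.38, 0.39 and 0.32, and its other probe set above the filter gave 0.38. A dim probe set below the filter gave 0.14, and the mean of all 3 gave 0.30.

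The 12 h calls depended on the fit. In limma without pairing the SE was 0.54 for SEC24D, 0.31 for SEC23B and 0.19 for TMED10, and the adjusted p of each was 1.00. With the replicate number as a block over all arrays the SE was 0.12, 0.12 and 0.07 in the same order. In that limma fit adjusted p was 0.34, 0.57 and 0.34, no member was called, and 3 genes in all (0.0285%) were. With the 12 h arrays alone, the block and a spread trend with robust moderation, limma gave adjusted p of 0.0118 for SEC24D, 0.0175 for SEC23B and 0.00773 for TMED10. That fit called 3 of 41 members higher (7.32%), against 1.15% of all genes. It called no member lower, against 0.314% of all genes. It has 2 residual degrees of freedom, and without the trend and robust moderation the 3 genes had adjusted p of 0.114, 0.15 and 0.143. Leaving out pair 1 left none of the 3 called, leaving out pair 2 left SEC24D and TMED10, and leaving out pair 3 left SEC24D.

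Counting by pair uses no model. The CsA array lay above its numbered control array in all 3 pairs at 12 h for 21 of 41 members (51.2%), against 18.9% of all tested genes. It lay below in all 3 pairs for none of the 41, against 22.5%. All CsA 12 h arrays lay above all control 12 h arrays for 14 members (34.1%), against 5.37%. Besides the 3 genes above these were SEC16A, SEC24C, SEC31A, COPB1, COPZ1, SURF4, TMED5, LMAN1, BET1, STX5 and YIPF5. Members of a coat share samples, so such counts are descriptions and their members are not independent of each other.

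**Figure D2:**
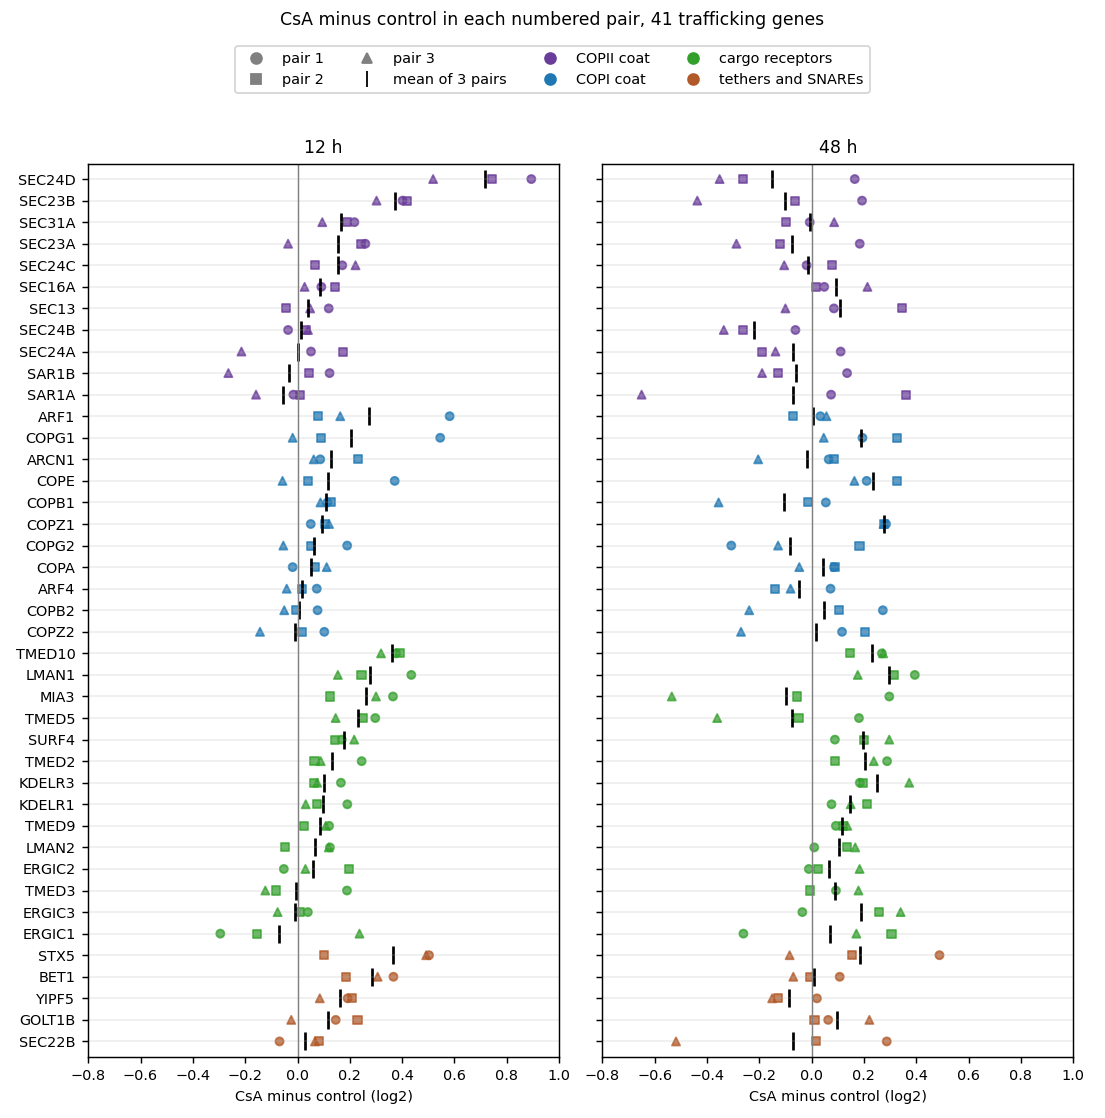
CsA minus control log2 difference of each of the 41 genes in numbered pairs 1, 2 and 3 at 12 h and at 48 h, by class, with each gene's mean of the 3 pairs. At 12 h the medians of the 3 pairs over all 41 genes were 0.17, 0.08 and 0.08, while at 48 h they were 0.09, 0.09 and -0.07.

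In the COPII coat 9 of 11 genes had a 12 h change above 0, with a median of 0.09 and pair medians of 0.12, 0.14 and 0.04. Apart from SEC24D and SEC23B the values were small. SEC31A, the outer cage subunit, stood at 11.15, 11.00 and 11.05 in CsA 12 h and at 10.93, 10.81 and 10.96 in control 12 h, a difference of 0.17. SEC23A, the near relative of SEC23B, stood at 11.71, 11.79 and 11.72 in CsA 12 h and at 11.45, 11.55 and 11.76 in control 12 h. Its groups overlapped, with pair values of 0.26, 0.24 and -0.04. The other SEC24 genes stood at 0.00 (SEC24A), 0.01 (SEC24B) and 0.15 (SEC24C), beside 0.72 for SEC24D. SAR1A, the GTPase that starts the coat, had a difference of -0.06. Its probe sets disagreed, with 0.26 and -0.33 from the others, so no direction is given for it.

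In the COPI coat 10 of 11 genes lay above 0 at 12 h, but by little. The median was 0.09, with pair medians of 0.10, 0.07 and -0.02, and was 0.035 without pair 1. ARF1, the GTPase that recruits coatomer, had the highest value, 0.27. It stood at 5.97, 5.48 and 5.40 in CsA 12 h and at 5.39, 5.40 and 5.23 in control 12 h. Replicate 1 of CsA stood apart, and ARF1 was measured here by a dim probe set only. COPB1, the beta subunit, stood at 12.34, 12.31 and 12.29 in CsA 12 h and at 12.22, 12.19 and 12.20 in control 12 h, a difference of 0.11 without overlap. COPZ2, a zeta subunit, had the lowest value of the class, -0.01. No COPI gene was called at 12 h in the 3 fits above.

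Among the 14 cargo receptors 11 lay above 0 at 12 h, with a median of 0.10 and pair medians of 0.18, 0.07 and 0.11. Without control 12 h replicate 1 the median was 0.064. LMAN1, the glycoprotein receptor of the intermediate compartment, stood at 11.43, 11.29 and 11.35 in CsA 12 h and at 11.00, 11.05 and 11.20 in control 12 h. The groups did not overlap, with a difference of 0.28 (SE 0.24 without pairing, 0.09 with it). SURF4 stood at 11.78, 11.68 and 11.87 in CsA 12 h and at 11.61, 11.54 and 11.66 in control 12 h, a difference of 0.18. TMED5, another p24 protein, had a difference of 0.23. In the fit of 12 h arrays alone limma gave adjusted p of 0.0821 for LMAN1, 0.0865 for SURF4 and 0.0533 for TMED5. The 3 ERGIC proteins stood near 0, at -0.07 (ERGIC1), 0.06 (ERGIC2) and -0.01 (ERGIC3).

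All 5 tethers and SNAREs had a 12 h change above 0, with a median of 0.16, although SEC22B stood at -0.0014 with array medians subtracted. BET1, a SNARE of ER-to-Golgi transport, stood at 10.94, 10.57 and 10.84 in CsA 12 h and at 10.57, 10.38 and 10.53 in control 12 h. Its lowest CsA array lay just above its highest control array, with a difference of 0.29 and a limma adjusted p of 0.0533 in the fit of 12 h arrays alone. STX5, the Golgi SNARE that pairs with BET1, stood at 6.89, 6.76 and 7.09 in CsA 12 h and at 6.39, 6.66 and 6.60 in control 12 h, a difference of 0.36. YIPF5, a membrane protein of the early Golgi, differed by 0.16 without overlap. SEC22B, an ER SNARE, differed by 0.03 on the deposited scale.

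**Figure D3:**
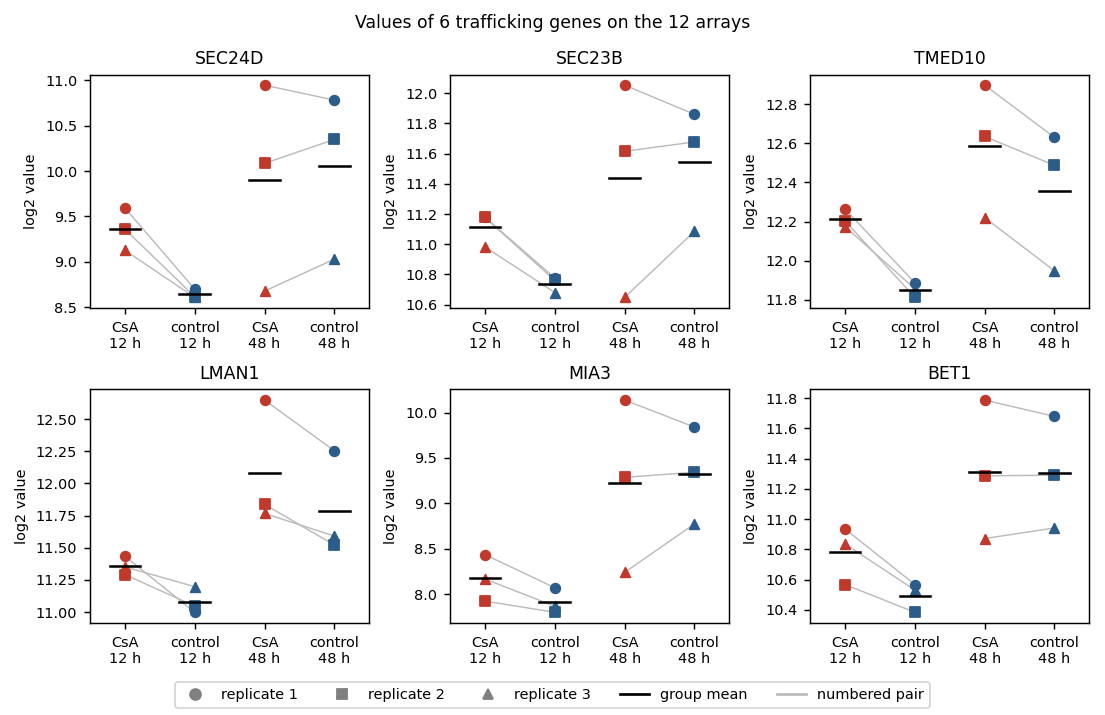
Log2 value of SEC24D, SEC23B, TMED10, LMAN1, MIA3 and BET1 on each of the 12 arrays, with numbered pairs joined and group means as bars. At 12 h the CsA arrays of SEC24D (9.13 to 9.59) lie above its control arrays (8.61 to 8.70), while at 48 h its CsA arrays (8.68 to 10.95) and control arrays (9.03 to 10.78) overlap.

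The second comparison was CsA for 48 h against vehicle for 48 h. The 3 genes called at 12 h no longer stood together: at 48 h the difference was -0.15 for SEC24D, -0.10 for SEC23B and 0.23 for TMED10. The cargo receptors lay above control in 12 of 14 genes, with a median of 0.13. The COPII coat lay above control in 2 of 11, with a median of -0.07. Of all tested genes 45.3% lay above control at 48 h, with a median of -0.02. No gene was called: 0% of the 10508 passed in limma without pairing, with the block, or with the 48 h arrays alone, and the counts at unadjusted p below 0.05 were 265, 1297 and 558. Members among these were 0, 7 and 5.

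The spread between replicates was wider at 48 h. The median SD of the members was 0.34 in CsA 48 h and 0.31 in control 48 h, against 0.08 in each 12 h group. That of all tested genes was also wider, at 0.28 in CsA 48 h and 0.21 in control 48 h, against 0.12 in each 12 h group. Replicate 1 was high and replicate 3 low in both treatments. The median COPII gene, set against its own mean over all arrays, stood at 0.37, 0.05 and -0.33 in CsA 48 h and at 0.39, 0.16 and -0.12 in control 48 h. Over all tested genes the same medians ran from -0.04 to 0.02. What separates the 48 h replicates was not tested. Without CsA 48 h replicate 1 the COPII median at 48 h was -0.24, and without CsA 48 h replicate 3 it was 0.19. The COPI median was -0.17 and 0.22, and that of the tethers and SNAREs was -0.23 and 0.23, under the same 2 omissions. The cargo receptor median stayed above 0 without any 1 array, between 0.04 and 0.26.

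**Figure D4:**
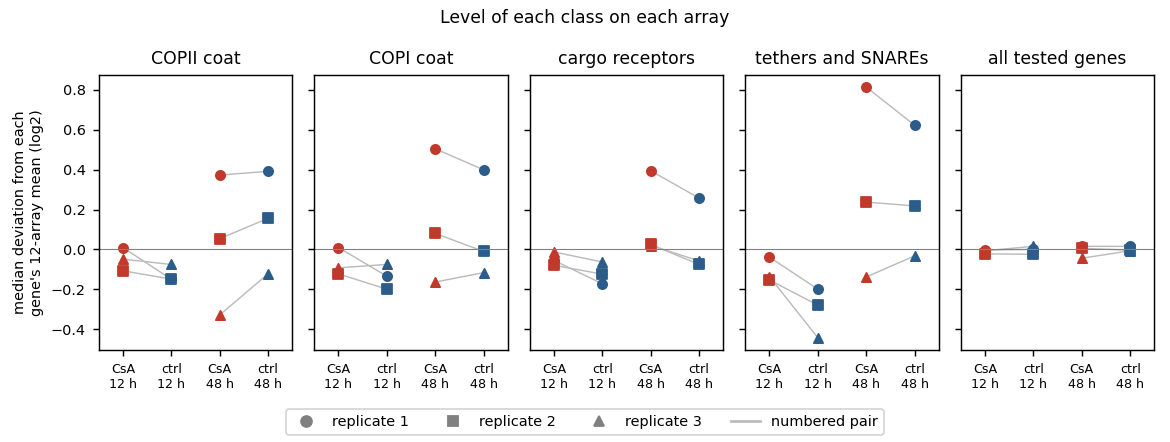
Median over each class of the log2 value minus the gene's mean over all 12 arrays, for each array. At 48 h replicate 1 is the highest and replicate 3 the lowest in every class and both treatments, except that replicate 2 is the lowest for cargo receptors in control.

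Pairing by number removes only the part of this spread that both samples of a number share. The pair medians over all members still differed, at 0.09, 0.09 and -0.07. The CsA array lay above its control array in all 3 pairs at 48 h for 13 of 41 members (31.7%), against 13.4% of all genes. Of these 8 were cargo receptors, 3 COPI, 1 COPII and 1 a tether or SNARE. The CsA array lay below its control in all 3 pairs for 1 member, SEC24B (2.44%), against 16.2% of genes. All CsA 48 h arrays lay above all control 48 h arrays for SEC16A and COPE (4.88%), against 2.00%.

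The cargo receptors had pair medians of 0.09, 0.14 and 0.18 at 48 h. LMAN1 stood at 12.65, 11.84 and 11.77 in CsA 48 h and at 12.25, 11.52 and 11.59 in control 48 h. The groups overlapped, but each CsA array exceeded its own control, by 0.39, 0.32 and 0.18. TMED10 stood at 12.90, 12.64 and 12.22 in CsA 48 h and at 12.63, 12.49 and 11.95 in control 48 h, with pair values of 0.27, 0.15 and 0.27. SURF4 had pair values of 0.09, 0.20 and 0.30, and KDELR1, a retrieval receptor for ER chaperones, of 0.08, 0.21 and 0.15. ERGIC3 had pair values of -0.04, 0.26 and 0.34. MIA3 was the lowest of the class, at -0.10 with pair values of 0.30, -0.06 and -0.53. In limma with the block, adjusted p was 0.36 for LMAN1 and 0.37 for TMED10.

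In the COPI coat 7 of 11 genes lay above 0 at 48 h, with pair medians of 0.09, 0.10 and -0.08. COPZ1, the main zeta subunit, stood at 11.12, 10.62 and 10.72 in CsA 48 h and at 10.84, 10.35 and 10.44 in control 48 h. The 3 pair values were nearly equal, at 0.28, 0.28 and 0.27, although replicate 1 was high in both groups. COPE, the epsilon subunit, stood at 10.25, 10.13 and 10.15 in CsA 48 h and at 10.04, 9.80 and 9.98 in control 48 h, with a difference of 0.23 (0.12 as the mean with its dim probe set below the filter). In limma with the block, adjusted p was 0.35 for COPZ1 and 0.41 for COPE. COPB1 was the lowest, at -0.10.

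In the COPII coat the pair medians at 48 h were 0.09, -0.10 and -0.19. SEC24B stood at 10.23, 10.34 and 10.03 in CsA 48 h and at 10.30, 10.60 and 10.36 in control 48 h. Its pair values were -0.06, -0.26 and -0.34, with a limma adjusted p of 0.37 under the block. SEC13, shared by the COPII cage and the nuclear pore, was the highest of the class at 0.11, with pair values of 0.09, 0.35 and -0.10. Among the tethers and SNAREs STX5 was highest at 0.19 and YIPF5 lowest at -0.09, and the groups of both overlapped.

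The third comparison was the difference between the 2 effects, the effect at 48 h minus the effect at 12 h. No gene passed: 0% of genes were called in limma without pairing and with the block, where 162 and 961 genes had unadjusted p below 0.05. Among the members 0 and 3 did. On the probe sets used, SEC24D had the largest difference among the members, -0.87, with a limma adjusted p of 0.43 under the block. SEC23B differed by -0.48 (adjusted p 0.54), BET1 by -0.27 (0.54), ARF1 by -0.27 (0.62) and YIPF5 by -0.25 (0.54) in the same fit. SEC24B and SEC23A each differed by -0.23 and MIA3 by -0.36. Single 48 h arrays moved these values widely. Without CsA 48 h replicate 3 the difference was -0.26 for SEC24D, -0.08 for SEC23B, -0.05 for BET1, -0.14 for YIPF5 and 0.13 for MIA3. Without CsA 48 h replicate 1 it was -1.39 for SEC24D, -0.78 for SEC23B, -0.51 for BET1 and -0.82 for MIA3. Omitting control 48 h replicate 1 or 3 gave -0.50 or -1.38 for SEC24D, and ARF1 stood at -0.09 without CsA 12 h replicate 1. As the mean of all probe sets SEC24D differed by -0.36 and SEC23B by -0.42. On the other side stood ERGIC3 at 0.20 and COPZ1 at 0.19, while GOLT1B (-0.02) and SEC13 (0.07) lay near 0. The difference was below 0 for 9 of 11 COPII genes, 7 of 11 COPI genes and 5 of 5 tethers and SNAREs. It was below 0 for 3 of 14 cargo receptors, beside 5297 of all 10508 tested genes. The median was -0.17 for COPII, -0.02 for COPI and 0.04 for cargo receptors, beside -0.00 for all tested genes. A call at 12 h without one at 48 h therefore does not show that the effects differ.

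Time was the last comparison, 48 h against 12 h within each treatment. Its control part shares the 12 h and 48 h control arrays with the CsA effects, so the values are given side by side and no relation between them is drawn. In control cells MIA3, BET1 and YIPF5 rose, which is 3 of 41 members (7.32%), against 12.5% of all genes called higher. None of the members fell, against 13.7% of genes called lower. In CsA cells ERGIC3 alone rose (2.44%), against 6.77% of genes, and none fell, against 7.58%. In limma without pairing the members' shares of calls thus stood below those of all genes, in each treatment and direction. This depended on the fit: in control cells 12 of 41 members were called with the number as a block over both times. With array weights 22 of 41 members were called there, beside 5929 of 10508 genes.

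MIA3 stood at 9.84, 9.34 and 8.77 in control 48 h and at 8.07, 7.80 and 7.87 in control 12 h. The groups were well apart, with a change of 1.41 and a limma adjusted p of 0.0313. In CsA cells it stood at 10.14, 9.29 and 8.24 at 48 h and at 8.43, 7.92 and 8.17 at 12 h, a change of 1.05 (adjusted p 0.11) with replicate 3 at 48 h inside the 12 h range. BET1 changed by 0.81 in control cells (limma adjusted p 0.031) and stood at 11.68, 11.29 and 10.94 at 48 h, against 10.57, 10.38 and 10.53 at 12 h. In CsA cells its difference was 0.54 (adjusted p 0.14). YIPF5 changed by 0.37 in control cells (limma adjusted p 0.0445), beside 0.12 in CsA cells (0.49). The YIPF5 call was lost with array medians subtracted (0.0678), with the mean of all probe sets (0.0719) and without the filter (0.0576). Without the filter, limma gave adjusted p of 0.082 for MIA3 and 0.0734 for BET1 in control cells. In CsA cells limma gave MIA3 an adjusted p of 0.0375 with the number as a block over both times, and 0.0667 with array weights.

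ERGIC3, a membrane protein of the intermediate compartment, stood at 11.10, 11.10 and 11.27 in CsA 48 h and at 10.81, 10.79 and 10.83 in CsA 12 h. The groups did not overlap, with a change of 0.34 and a limma adjusted p of 0.047. As the mean of all its probe sets, of which 2 lay below the filter, the change was 0.10 (adjusted p 0.242), and the call was also lost with array medians subtracted (0.0565) and with array weights (0.174). In control cells the difference was 0.15 (0.29). LMAN1 was close to the threshold in both treatments, at 0.72 in CsA cells (adjusted p 0.0699) and 0.71 in control cells (0.0544). SEC24D differed by 0.54 over time in CsA cells (0.50) and by 1.41 in control cells (0.0742). The LMAN1 call depended on the fit. With the number as a block over both times limma gave adjusted p of 0.0351 in CsA cells and 0.0272 in control cells. With array weights it gave 0.048 and 0.00499, with array medians subtracted 0.0771 and 0.0666, and without the filter 0.15 and 0.121.

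All control 48 h arrays lay above all control 12 h arrays for 15 of 41 members (36.6%), against 24.9% of genes. All CsA 48 h arrays lay above all CsA 12 h arrays for LMAN1 and ERGIC3 (4.88%), against 16.0%. The median difference over time was 0.19 in CsA cells and 0.20 in control cells for the members, and 0.01 in each for all tested genes. Without replicate 1 of the 48 h group it was 0.05 in CsA cells and 0.08 in control cells. By class it was highest in the tethers and SNAREs, at 0.54 in CsA cells and 0.65 in control cells. It was 0.23 and 0.13 in cargo receptors, 0.22 and 0.24 in the COPI coat, and 0.08 and 0.18 in the COPII coat, CsA first each time. The number of members called depended on which array was left out. Without control 48 h replicate 3 there were 9 members called in control cells, and without any other array of the comparison there were 0. In CsA cells there were 10 without CsA 48 h replicate 3 and 0 without any other. Over the same omissions 1322 to 3189 of all 10508 genes were called in control cells, and 432 to 3885 in CsA cells. These ranges cover all omissions, so no share of all genes at the same omission stands beside the 9 and 10 members. Whichever array was left out, MIA3 kept a control change of at least 1.15, and ERGIC3 a CsA change of at least 0.29. Why the numbers called differed between omissions was not tested.

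**Figure D5:**
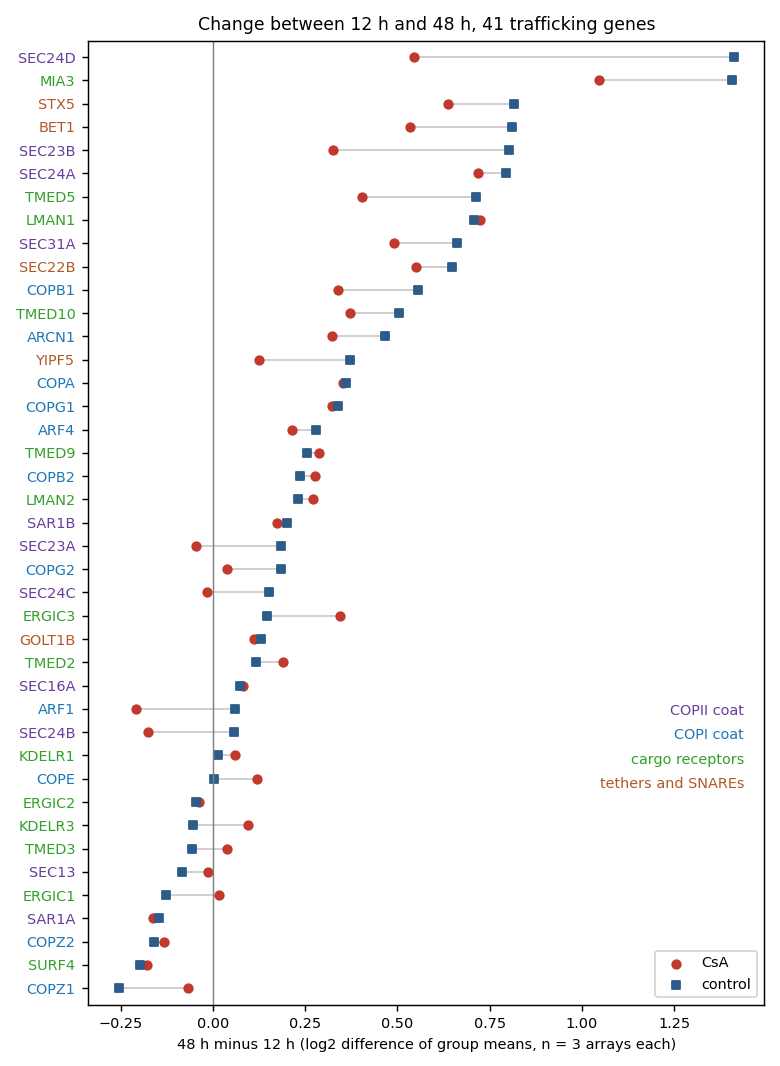
Log2 difference between 48 h and 12 h of each of the 41 genes in CsA cells and in control cells, on a shared axis, with gene names coloured by class. MIA3 lies at 1.05 in CsA cells and 1.41 in control cells, and SEC24D at 0.54 and 1.41.

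The rest of the early secretory pathway served for comparison: 82 further genes of exit sites, ARF regulation, cargo export, tethering and the COG complex, of which 74 passed the filter. Their median CsA change was 0.00 at 12 h and 0.01 at 48 h, beside 0.10 and 0.04 for the members. At 12 h 39 of 74 lay above 0, against 45.2% of all tested genes. In all 3 pairs 20 lay above and 12 below control, against 18.9% and 22.5% of all tested genes. In the fit of 12 h arrays alone 2 rose and none fell, against 1.15% and 0.314% of all tested genes. The 2 that rose were MCFD2, the soluble partner of LMAN1, at 0.23 (limma adjusted p 0.0463), and GORASP2, a Golgi stacking protein, at 0.26 (0.0452). None was called at 48 h, or in the limma fits of all arrays. Over time 14 of the 74 rose and 5 fell in control cells, against 12.5% and 13.7% of all tested genes. In CsA cells 5 rose and none fell, against 6.77% and 7.58%. MIA2, which encodes the partner of MIA3 at exit sites, rose by 2.54 in control cells (limma adjusted p 0.0112), beside 1.87 in CsA cells (0.051).

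Set against the promoters, the 12 genes with TGACGTG had a median CsA change of 0.11 at 12 h and 0.04 at 48 h. The 25 with a window but no TGACGTG had 0.12 and 0.02. All 12 lay above 0 at 12 h, between 0.00 and 0.36, as did 20 of the 25, which ranged from -0.06 to 0.37. SEC23B and TMED10 lack the letters in these windows, and COPB2, with 2 matches, stood at 0.01. SEC24D, which had the highest 12 h change of the members, had no window and is in neither set.

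The chosen probe sets were not the only ones. There were 62 further probe sets, of which 25 in 17 genes lay below the filter and 37 in 23 genes passed it. Among those that passed, the sign was opposite to that of the chosen probe set for 6 at 12 h and 9 at 48 h, among them probe sets of SAR1A, COPZ1, KDELR1, KDELR3 and ERGIC2 at 12 h. Averaging all probe sets of a gene, dim ones included, gave a smaller change for SEC24D and TMED10 at 12 h and for ERGIC3 in CsA cells over time, as given above. For MIA3 in control cells over time it gave 0.99 (limma adjusted p 0.0497). SEC23B at 12 h stood at 0.36. BET1 had no further probe set, so averaging could not change its value. Probe sets of one gene share the same RNA and add no replicate.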

How the data were processed

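Total RNA was hybridised to Affymetrix arrays, and the deposited values were made by the authors with GCRMA, per the submitters' processing notes. The deposited values were taken as log2 intensities from their range. Its settings were not given in the sources used here. Of 54675 probe sets 41091 carried 1 gene symbol in the platform annotation, 1801 several, 11721 none, and 62 were controls. Only those with 1 symbol were used. Each gene was represented by its probe set of highest mean and kept if above 4 on all 3 arrays of any group. Array medians ran from 2.85 to 2.96.

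Changes were fitted in limma 3.58.1 (R 4.3.3) with a mean for each of the 4 groups, using the 12 arrays together (8 residual degrees of freedom), with Benjamini-Hochberg adjustment over 10508 genes at 0.05. Same-numbered CsA and control samples deviated together, with correlations over genes of 0.37, 0.53 and 0.59 at 12 h and 0.78, 0.55 and 0.74 at 48 h, so fits with the number as a block were also given. Between times the numbers did not pair samples. The labels call the samples biological replicates without naming separate cultures, so p-values measure the spread between these samples. Scripts were tested on simulated data.

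The members, the classes, the wider pathway list and the motifs were chosen with earlier results of these data known. Genes named per comparison are those with the 8 largest statistics (4 over time), the highest and lowest of each class, and any called. Others were named after their values were seen.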

Additional observations from a re-analysis of the deposited data

How the results depend on the processing

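Of 1318 values under alternatives, 1157 kept their direction and their side of the threshold or, for medians and counts, moved by less than the replicate spread or 1.5 times. Among the 435 class medians and counts 363 did. Without pairing no gene was called in the CsA comparisons. For named genes there, a kept value means only the same sign and still no call. Under the replicate block the genes called at 12 h numbered 3, with the 12 h arrays alone 5, with trend and robust moderation 154 (3 members), and without the filter 1. Those paired fits gave no call at 48 h. Leaving out 1 sample gave 0 genes and 0 members at 12 h, and leaving out a pair from the fit with trend and robust moderation gave up to 91 genes and 2 members.

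Array weights, which lower the influence of divergent arrays, moved the 48 h medians to 0.18 for all members, 0.075 for COPII, 0.36 for COPI, 0.25 for cargo receptors and 0.14 for tethers and SNAREs. The median difference between effects became 0.12 and the CsA time median 0.39. Omitting 1 sample or pair moved the 48 h median between -0.11 and 0.19 for all members, -0.24 and 0.19 for COPII, -0.17 and 0.22 for COPI, 0.041 and 0.26 for cargo receptors, and -0.23 and 0.23 for tethers and SNAREs. The difference moved between -0.25 and 0.094.

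Over time in CsA cells 2394 genes and 3 members were called with the number block (replicate block over both times), 958 genes with array weights and 988 without the filter, no member with array medians subtracted, and 432 to 3885 genes and 0 to 10 members with 1 sample left out. In control cells 12 members were called with the number block, 22 members and 5929 genes with array weights, 0 members without the filter, and 1322 to 3189 genes and 0 to 9 members with 1 sample left out.

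No gene that changed sign was called in that comparison, and the cause was not tested. With array weights COPZ2 at 12 h was 0.015, COPB1 and MIA3 at 48 h were 0.11 and 0.25, and the GOLT1B difference was 0.026. COPZ2 was 0.0012 as the mean of its probe sets. With array medians subtracted the GOLT1B difference was 0.0073 and SEC22B at 12 h was -0.0014. Omitting 1 sample or pair moved COPZ2 at 12 h between -0.066 and 0.089, SEC22B between -0.10 and 0.13, SAR1A between -0.17 and 0.023 and ERGIC1 between -0.22 and 0.041. At 48 h it moved COPB1 between -0.33 and 0.14, MIA3 between -0.56 and 0.39, SEC13 between -0.079 and 0.27, STX5 between -0.28 and 0.54 and YIPF5 between -0.19 and 0.024. The differences between effects ran from -0.11 to 0.057 for GOLT1B, -0.12 to 0.23 for SEC13 and -0.82 to 0.13 for MIA3.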
